A study of Mus musculus with 76 samples.

Results

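The genes described here are 52 nuclear-encoded subunits of mitochondrial respiratory complexes I to IV, taken by name from a list and looked up among the 54232 genes of the deposited count table. All 52 were found, 29 in complex I, 4 in complex II, 7 in complex III and 12 in complex IV, with Ndufa4 counted under complex IV. All 52 passed the filter on low counts in heart, in kidney and in visceral fat. In visceral fat Cox6a2 passed it only through the group in which it was high, as given below. The list was drawn up by function and not from measured values, but earlier results on these libraries were known when it was drawn up.

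RNA had been sequenced from heart, kidney and visceral fat (VFAT) of male Fox Chase SCID mice (CB17/Icr-Prkdcscid/IcrlcoCrl) aged 12 weeks, all of which lack working T and B lymphocytes but keep innate immune cells. The 5 arms were partial nephrectomy with transplanted Lenti-adipo-NaKtide cells (NaKtide cells), partial nephrectomy with Lenti-adipo-scrambled cells (scrambled cells), partial nephrectomy with Control Cells (control cells), partial nephrectomy alone (PNx), and sham surgery with no transplant (Sham). The title names adipose Na/K-ATPase signalling in uremic cardiomyopathy as the subject, and NaKtide is a peptide inhibitor of signalling from the Na/K-ATPase through the kinase Src. Each arm had 5 samples per tissue, except the scrambled cells in VFAT with 4, so that 76 libraries gave 74 samples. The sources used here give neither the type of the transplanted cells nor the day of tissue removal. Nothing in them ties each library to an animal of its own, so the p-values measure the spread between samples, which may be technical. In whole tissue, fewer cells of a type and less RNA per cell cannot be told apart.

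The respiratory chain sits in the inner mitochondrial membrane. Complex I takes electrons from NADH and complex II from succinate, both pass them by way of ubiquinone to complex III and cytochrome c, and complex IV hands them to oxygen. Complexes I, III and IV pump protons for ATP synthase, and each is built from nuclear-encoded subunits together with subunits made inside the organelle from mitochondrial DNA, whereas complex II is wholly nuclear-encoded. Several complex IV subunits come in pairs, a form found in most tissues and a form of heart and skeletal muscle, such as Cox6a1 and Cox6a2. The proximal tubule of the kidney and the heart muscle both depend heavily on this pathway.

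Promoter sequence was looked up for the members in RefSeq on build GRCm38.p6, and 41 of the 52 had a window from 250 bases before to 50 bases after the start of the gene. The 4 promoters printed belong to members on which the results below turn. Cox6a1 and Cox8a were lower in heart than in kidney while the other 50 members were higher. Ndufa8 was among the members nearest to a call in kidney after PNx, and Sdha was lower in every PNx kidney than in any Sham kidney. EdgeR called neither of them there, and the share of all genes without overlap is given below. Each line gives the 250 bases before the start, 5′ to 3′ on the strand of the gene, in which capitals mark matches to the searched motifs on either strand. The coordinates are chr5:115348959-115349208 for Cox6a1, chr19:7217617-7217866 for Cox8a, chr2:36049339-36049588 for Ndufa8 and chr13:74350241-74350490 for Sdha, all on the minus strand.
Cox6a1: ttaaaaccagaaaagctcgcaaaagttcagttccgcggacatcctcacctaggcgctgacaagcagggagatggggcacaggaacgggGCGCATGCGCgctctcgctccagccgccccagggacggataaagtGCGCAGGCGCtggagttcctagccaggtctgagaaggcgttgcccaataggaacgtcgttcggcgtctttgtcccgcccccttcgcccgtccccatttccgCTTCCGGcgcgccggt
Cox8a: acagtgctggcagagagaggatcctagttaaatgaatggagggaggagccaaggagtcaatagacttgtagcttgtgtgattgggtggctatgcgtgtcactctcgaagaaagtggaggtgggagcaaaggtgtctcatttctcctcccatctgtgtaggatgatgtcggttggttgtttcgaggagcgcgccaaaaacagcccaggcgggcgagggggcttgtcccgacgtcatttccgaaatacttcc
Ndufa8: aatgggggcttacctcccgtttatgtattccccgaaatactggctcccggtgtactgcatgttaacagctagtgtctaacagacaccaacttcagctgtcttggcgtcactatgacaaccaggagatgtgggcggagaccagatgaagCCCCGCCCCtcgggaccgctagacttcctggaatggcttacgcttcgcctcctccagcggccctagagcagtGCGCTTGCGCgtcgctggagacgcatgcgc
Sdha: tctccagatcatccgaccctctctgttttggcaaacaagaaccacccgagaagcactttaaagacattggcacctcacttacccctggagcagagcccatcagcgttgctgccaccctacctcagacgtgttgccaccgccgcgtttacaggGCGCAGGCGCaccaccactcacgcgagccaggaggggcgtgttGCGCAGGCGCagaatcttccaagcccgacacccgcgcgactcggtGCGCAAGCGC
The motifs were the palindromic NRF1 consensus, of which the capitals in the Sdha line are examples, CCGGAAG for ETS factors such as GABP, the YY1 consensus, GGGGCGGGG for SP1 and TCAAGGTCA for ERR, factors known to act on genes of respiration. Cox6a1 had matches for NRF1 and ETS, Ndufa8 for NRF1 and SP1, Sdha 3 matches for NRF1 and Cox8a none in the printed bases. Over the whole windows, the NRF1 motif was in 8 of 41 members (19.5%), against 5.19% of 27025 genes with a window. The ETS motif was in 10 members (24.4%), against 9.93% of genes, and the YY1 motif in 4 (9.76%), against 0.995%. The SP1 motif was in 6 members (14.6%), against 12.9%, and the ERR motif in 1 (2.44%), against 0.466%. A match is a string of letters and not a site shown to be bound.

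Totals ran from 2803991 to 12986214 counts for the heart libraries, from 1241590 to 16912788 for the kidney libraries and from 5666563 to 20037187 for the fat libraries. Levels are given as CPM, counts scaled to the library total after TMM adjustment. The principal transcripts of the members were short, with a median of 863 bases and a range of 419 to 4371, and 30 of the 52 were under 1000 bases. The median over the genes tested in kidney was 2554 bases. An RNA length index was therefore taken for each library, the mean log2 CPM of genes of at most 1000 bases minus that of genes of at least 5000 bases, with the members left out of it. Kidney PNx 3, 4 and 5 had indices of 1.48, 1.03 and 1.27, and Kidney control cells 4 and 5 had 1.43 and 1.63, so that short mRNAs were overrepresented in these libraries. Kidney PNx 1 and 2 had -0.12 and -0.23, within or near the Sham range of -0.27 to -0.03. Heart Sham 2 and 3 had indices of 1.40 and 1.28, and 638.5 and 1738 CPM of Kap, a gene of the kidney proximal tubule. VFAT Sham 3 and VFAT scrambled cells 2 and 4 had the most skeletal muscle mRNA of the fat libraries, and VFAT Sham 1 and 4 the most epididymal mRNA. The main results that rest on these libraries are given with and without them, except for some in fat. In comparisons with scrambled cells there, members other than Cox6a2 are not followed without scrambled cells 2 and 4 together.

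Heart muscle markers were abundant in every heart library, proximal tubule markers in every kidney library and white adipocyte markers in every fat library. In Sham mice the members were expressed most in heart, less in kidney and least in VFAT. Of the 52 members, 50 were called higher and 2 lower in heart than in kidney (median log2 difference 1.56), where 58.7% of 19180 genes tested were called, 28.3% higher and 30.3% lower. Heart against VFAT gave the same counts, 50 higher and 2 lower (median 2.33), where 57.1% of genes were called, and gave them again without Heart Sham 2 and 3 (median 2.05) and without VFAT Sham 1 and 4 (median 2.05). Kidney against VFAT gave 40 higher and 0 lower (median 0.81), where 51.5% were called. Over all genes the median log2 difference was -0.01, -0.21 and -0.16 in these 3 comparisons. A call here is an adjusted p under 0.05 in edgeR's quasi-likelihood test with Benjamini-Hochberg adjustment over all genes. With Heart Sham 2 and 3 left out, heart against kidney gave 47 higher and 2 lower (median 1.24). With VFAT Sham 1 and 4 left out, kidney against VFAT gave 17 higher and 1 lower (median 0.51), the lower one being Cox6a2. White adipocyte markers summed to 3527 and 2219 CPM in these 2 fat libraries, against 8564 to 17469.8 CPM in the other 3 Sham fat libraries. Their part in the fall from 40 calls, and that of the smaller number of samples, was not tested. For the fits with libraries left out, the share of all genes called is not given here. The counts in those fits, and the fall, therefore cannot be read as particular to the members.

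Both members lower in heart, Cox6a1 and Cox8a, were the widely expressed forms of paired complex IV subunits. Not all such forms were lower, since Cox7a2 and Cox4i1 were called higher in heart. Their log2 differences were 0.95 and 1.73 against kidney, and 1.76 and 2.26 against VFAT. In the FPKM values made by the authors, which divide by the union of exons, Cox8a and Cox6a1 ranked 1 and 2 of the 52 in both kidney and VFAT. As CPM per 1000 bases of the principal transcript, Cox6a1, Cox4i1 and Cox8a were the top 3 in kidney, at 869.5 ± 16.2, 864.9 ± 11.4 and 852.8 ± 33.5, with overlapping ranges. In VFAT Cox4i1, Cox8a and Cox6a1 were the top 3 on that scale, at 702.4 ± 197, 689.5 ± 146.2 and 582.3 ± 162.7 (SD, n = 5 each). The order of these 3 therefore depends on the length used. Cox8a stood at 401.6 ± 165.2 FPKM in Sham heart, 833.3 ± 33.4 FPKM in Sham kidney and 587.8 ± 129.8 FPKM in Sham VFAT (SD, n = 5 each). Its log2 difference was -1.16 ± 0.22 (SE) for heart against kidney (edgeR adjusted p = 8.47e-06) and -0.62 ± 0.22 for heart against VFAT (edgeR adjusted p = 0.0133). Cox6a1 stood at 254.1 ± 124.2 FPKM in heart, 685.0 ± 11.9 FPKM in kidney and 400.2 ± 114.8 FPKM in VFAT (SD, n = 5 each). Its log2 difference was -1.54 ± 0.27 for heart against kidney (edgeR adjusted p = 1.03e-06) and -0.73 ± 0.26 for heart against VFAT (edgeR adjusted p = 0.0135).

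Cox6a2, the heart and skeletal muscle partner of Cox6a1, ranked 1 of 52 by FPKM in heart, 52 in kidney and 51 in VFAT. Per 1000 bases of the principal transcript it came second in heart, at 2336 ± 1237 CPM against 2414 ± 1181 CPM for Cox4i1 (SD, n = 5 each), with overlapping ranges. Its 5 Sham hearts had 1981, 4041, 4971, 1955 and 1553 FPKM. The 5 Sham kidneys had 0.942, 1.12, 18.8, 1.68 and 0.833 FPKM, and the 5 Sham fat samples had 0, 0, 65.5, 0.541 and 0.293 FPKM. No heart value came near those of the other 2 tissues, and in each of these the library numbered 3 stood far above the rest. Cox6a2 made up 87.8 to 92.3% of the FPKM of Cox6a1 and Cox6a2 together in all 25 hearts, at most 2.67% in the kidneys and 0 to 38.5% in the fat. The muscle forms Cox7a1 and Cox8b, which are outside the list, had 1014 to 3127 FPKM and 1062 to 4422 FPKM in Sham hearts. In Sham kidneys they had 14.9 to 30.5 FPKM and 0 to 18.5 FPKM.

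**Figure D1:**
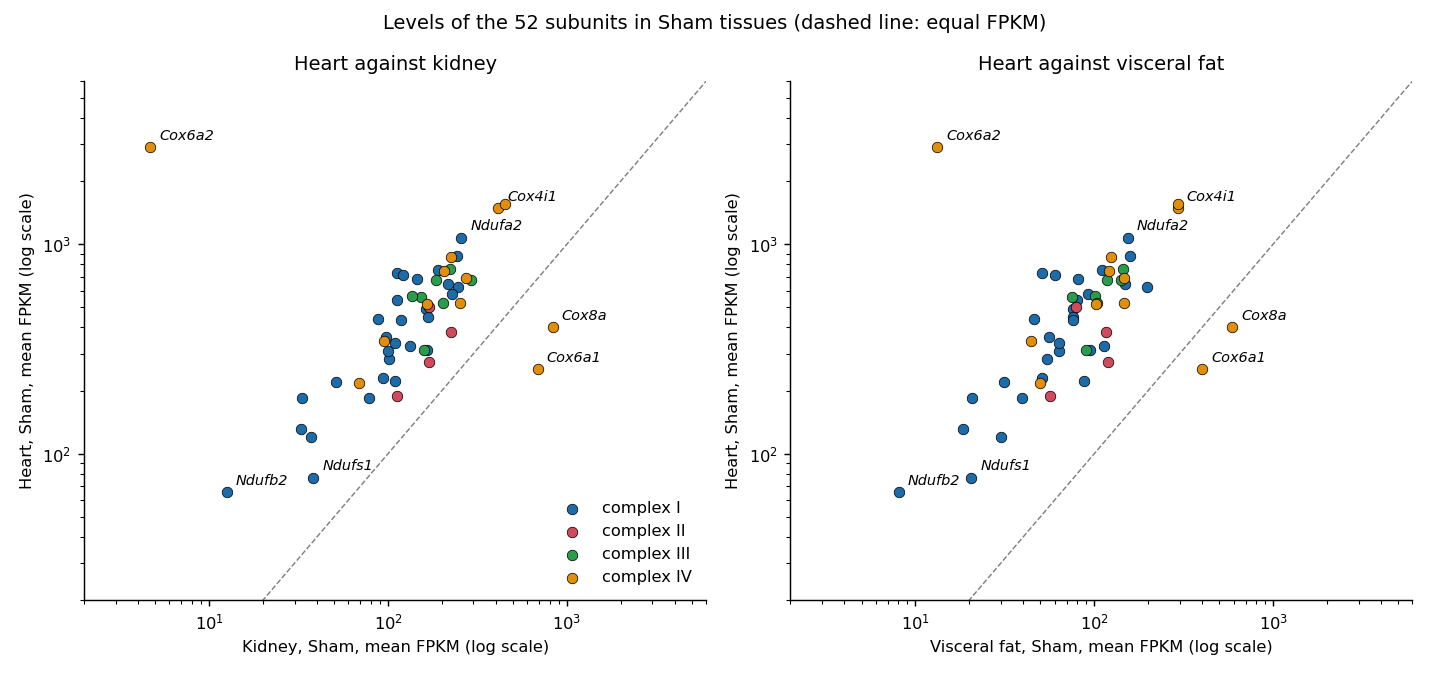
Mean FPKM of the 52 members in Sham heart (vertical axis) against Sham kidney and against Sham visceral fat (horizontal axes), all on log scales, with 1 point per member as the mean of 5 samples, coloured by complex. Cox6a1 and Cox8a lie below the dashed line of equal FPKM in both panels, and Cox6a2 lies far to the upper left of the other members.

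The subunits named next had means in the order heart, kidney, VFAT. Cox5a, a small matrix-side subunit of complex IV, had the lowest p in heart against both other tissues, with 346.3 ± 76.6 FPKM in heart, 95.1 ± 3.11 FPKM in kidney and 44.5 ± 15.6 FPKM in VFAT (SD, n = 5 each). Its log2 difference was 2.90 ± 0.20 for heart against VFAT (edgeR adjusted p = 2.25e-19) and 1.77 ± 0.19 for heart against kidney (edgeR adjusted p = 3.22e-12). Uqcrfs1, the Rieske iron-sulfur protein of complex III, had 673.1 ± 74.1 FPKM in heart, 289.5 ± 7.0 FPKM in kidney and 141.2 ± 66.4 FPKM in VFAT. Cyc1, the cytochrome c1 of complex III, had 522.3 ± 73.7, 202.3 ± 3.98 and 103.9 ± 46.4 FPKM in the same order of tissues. Sdha, the flavoprotein of complex II that oxidises succinate, differed least of the core subunits named, with 273.8 ± 45.2, 169.3 ± 9.67 and 119.5 ± 49.5 FPKM. Ndufs1, the largest iron-sulfur subunit of complex I, had 76.8 ± 15.7, 38.1 ± 2.85 and 20.6 ± 11.5 FPKM. Those FPKM values divide by the summed length of all exons, which is 8086 bases for Ndufs1 against 2661 for its principal transcript, so its level per length is understated. In kidney against VFAT, Sdhc, a membrane anchor of complex II, had the lowest p (log2 difference 1.03 ± 0.15, edgeR adjusted p = 4.43e-08).

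In kidney, edgeR called none of the 52 members for PNx against Sham, with 47 of 52 log2 fold changes positive and a median of 0.66. At an unadjusted p under 0.05 there were 33 members, against 42.2% of all genes, and DESeq2 called 4 (Ndufa8, Ndufs3, Uqcrb and Cox7c), which is 7.69% of the members, against 27.4% of all genes. The background was 16.8% of 16307 genes called, 9.25% higher and 7.56% lower, with a median of 0.05 over all genes. By complex the medians were 0.77 for complex I, 0.12 for complex II, 0.50 for complex III and 0.72 for complex IV.

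The 3 members of lowest p were a complex IV, a complex III and a complex I subunit. Cox7c, a small subunit of complex IV, had 231.8, 195.9, 442.0, 362.4 and 504.5 CPM in PNx kidneys, against 190.8, 192.6, 218.2, 175.8 and 183.7 CPM in Sham kidneys. Its log2 fold change was 0.85 ± 0.30 (edgeR adjusted p = 0.0504). Uqcrb, which binds ubiquinone in complex III, had 199.9, 158.9, 311.7, 261.8 and 357.5 CPM in PNx kidneys, against 166.4, 170.3, 188.0, 163.9 and 153.8 CPM in Sham kidneys. Its log2 fold change was 0.61 ± 0.22 (edgeR adjusted p = 0.0514). Ndufa8, an accessory subunit of complex I, had 179.6, 166.2, 408.6, 328.1 and 407.5 CPM in PNx kidneys, against 168.9, 169.9, 170.6, 164.2 and 173.8 CPM in Sham kidneys (log2 fold change 0.81 ± 0.30, edgeR adjusted p = 0.0556). In all 3 genes the high values were those of PNx 3, 4 and 5, and the values of PNx 1 or PNx 2 overlapped the Sham range. Cox4i1, the regulatory subunit of complex IV, showed the same split, with 734.2, 550.3, 1558, 1224 and 1558 CPM in PNx kidneys, against 649.4 to 672.3 CPM in Sham kidneys.

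**Figure D2:**
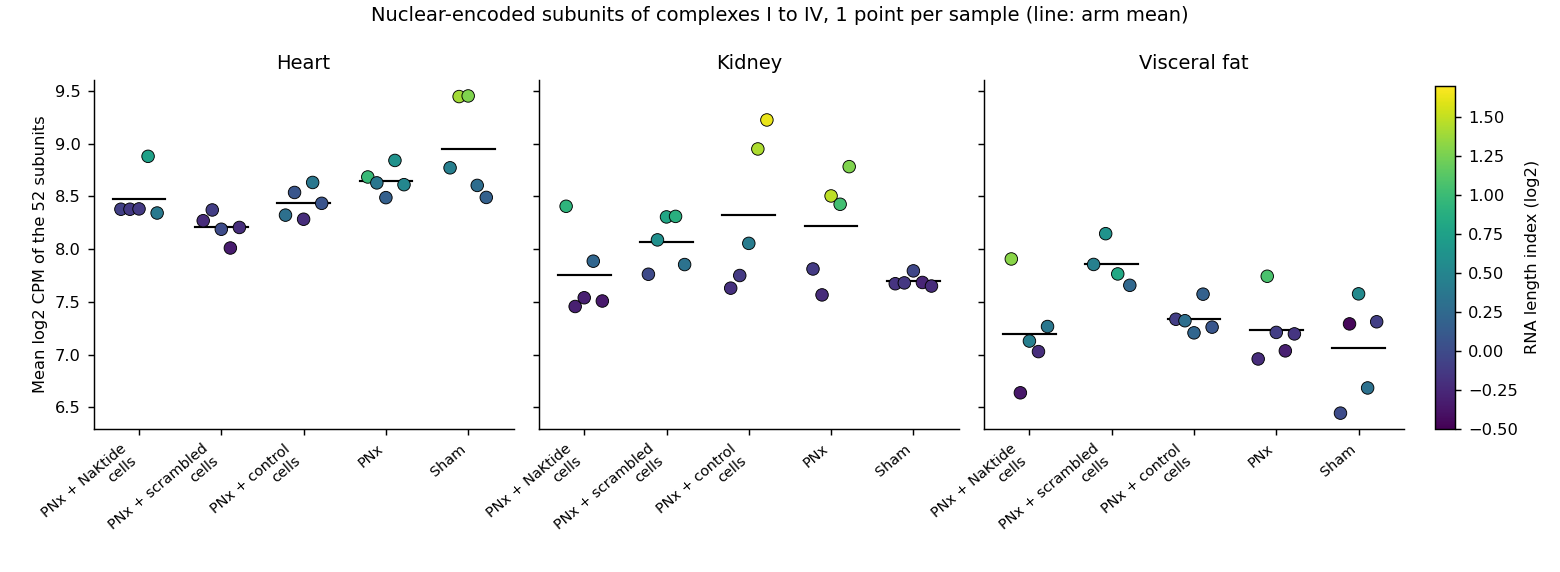
Mean log2 CPM of the 52 members, with 1 point per sample by arm in each tissue, a line at the arm mean, and colour for the RNA length index in log2 units. Kidney PNx 3 to 5, Kidney control cells 4 and 5 and Heart Sham 2 and 3, which have the highest indices of these 2 tissues, are also the highest points of their arms.

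Summed over the 52 members, PNx kidneys held 14635.9, 12405.6, 23913.2, 22393.5 and 28092.2 CPM, against 13370.8 to 13877.3 CPM in Sham kidneys. PNx 1 lay just above the Sham range and PNx 2 below it, and the 3 libraries far above it are those with the high length index. With PNx 3 to 5 and control cells 4 and 5 left out, the median log2 fold change of the members was -0.00, 25 of 52 were positive and 0 were called, while 97 genes were called overall. With the length index as a covariate the median was -0.09, 11 were positive and 0 were called (552 genes called overall). Cox7c then had a log2 fold change of 0.15 ± 0.28 in the smaller set and 0.10 ± 0.12 with the covariate. Genes outside the list were then taken by length. Under 1000 bases the median log2 fold change was 0.78 for 29 members and 0.80 for 1486 other genes whose log2 CPM averaged 3 or more, a level that Cox6a2 did not reach. From 1000 to 3000 bases it was 0.48 for 20 members and 0.19 for 4403 other genes. At 3000 bases and over it was 0.69 for the 2 members there, Sdhc and Ndufb2, and -0.27 for 4687 other genes, and Ndufb2 shares its locus with Braf. Across the 52 members the Spearman correlation of fold change and transcript length was -0.38, as a description.

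Among the members with longer transcripts, some had lower values in PNx kidneys. Sdha, with a principal transcript of 2900 bases, had 667.7, 639.2, 336.7, 587.3 and 640.7 CPM in PNx kidneys, against 755.3, 707.2, 682.7, 774.9 and 682.6 CPM in Sham kidneys. Uqcrc2, a core protein of complex III with a transcript of 1896 bases, had 392.3, 366.1, 211.9, 371.3 and 376.4 CPM in PNx kidneys, against 429.6, 424.8, 409.9, 439.6 and 396.3 CPM in Sham kidneys. The groups of these 2 members did not overlap, which held for 12.9% of all genes, and neither was called (Sdha log2 fold change -0.33 ± 0.16, edgeR adjusted p = 0.126; Uqcrc2 -0.29 ± 0.18, edgeR adjusted p = 0.213). Ndufs1, at 2661 bases, had 294.0, 282.0, 120.2, 224.2 and 231.4 CPM in PNx kidneys, against 322.5, 313.2, 305.2, 356.3 and 292.9 CPM in Sham kidneys (log2 fold change -0.47 ± 0.21, edgeR adjusted p = 0.10). PNx 3 was the lowest sample for all 3. With PNx 3 to 5 and control cells 4 and 5 left out, the log2 fold change was -0.15 for each of Sdha, Uqcrc2 and Ndufs1, and none was called.

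Cell markers moved in the same kidneys. The leukocyte markers summed to 52.3 to 1249 CPM in PNx kidneys, against 35.6 to 50.6 CPM in Sham kidneys, and 5 of 8 were called higher, with the highest sum in PNx 3. Proximal tubule markers summed to 10125.7 to 25917.5 CPM in PNx kidneys, against 22443.9 to 27235.8 CPM in Sham kidneys, and 2 of 9 were called lower. Of the distal nephron markers, 4 of 7 were called higher. Without PNx 3 to 5 and control cells 4 and 5, no marker of these 3 lists was called, with PNx 1 and 2 as the only PNx kidneys left. The median log2 fold changes were then -0.45 for proximal tubule (1 of 9 positive), 0.41 for distal nephron (7 of 7) and 0.39 for leukocyte markers (7 of 8). With all libraries they were -0.56, 0.58 and 2.47. With the length index as a covariate they were -0.58, 0.40 and 1.08, and the distal marker Calb1 was called (0.76 ± 0.17, edgeR adjusted p = 0.0158). The part of these markers in the values of the members was not tested.

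**Figure D3:**
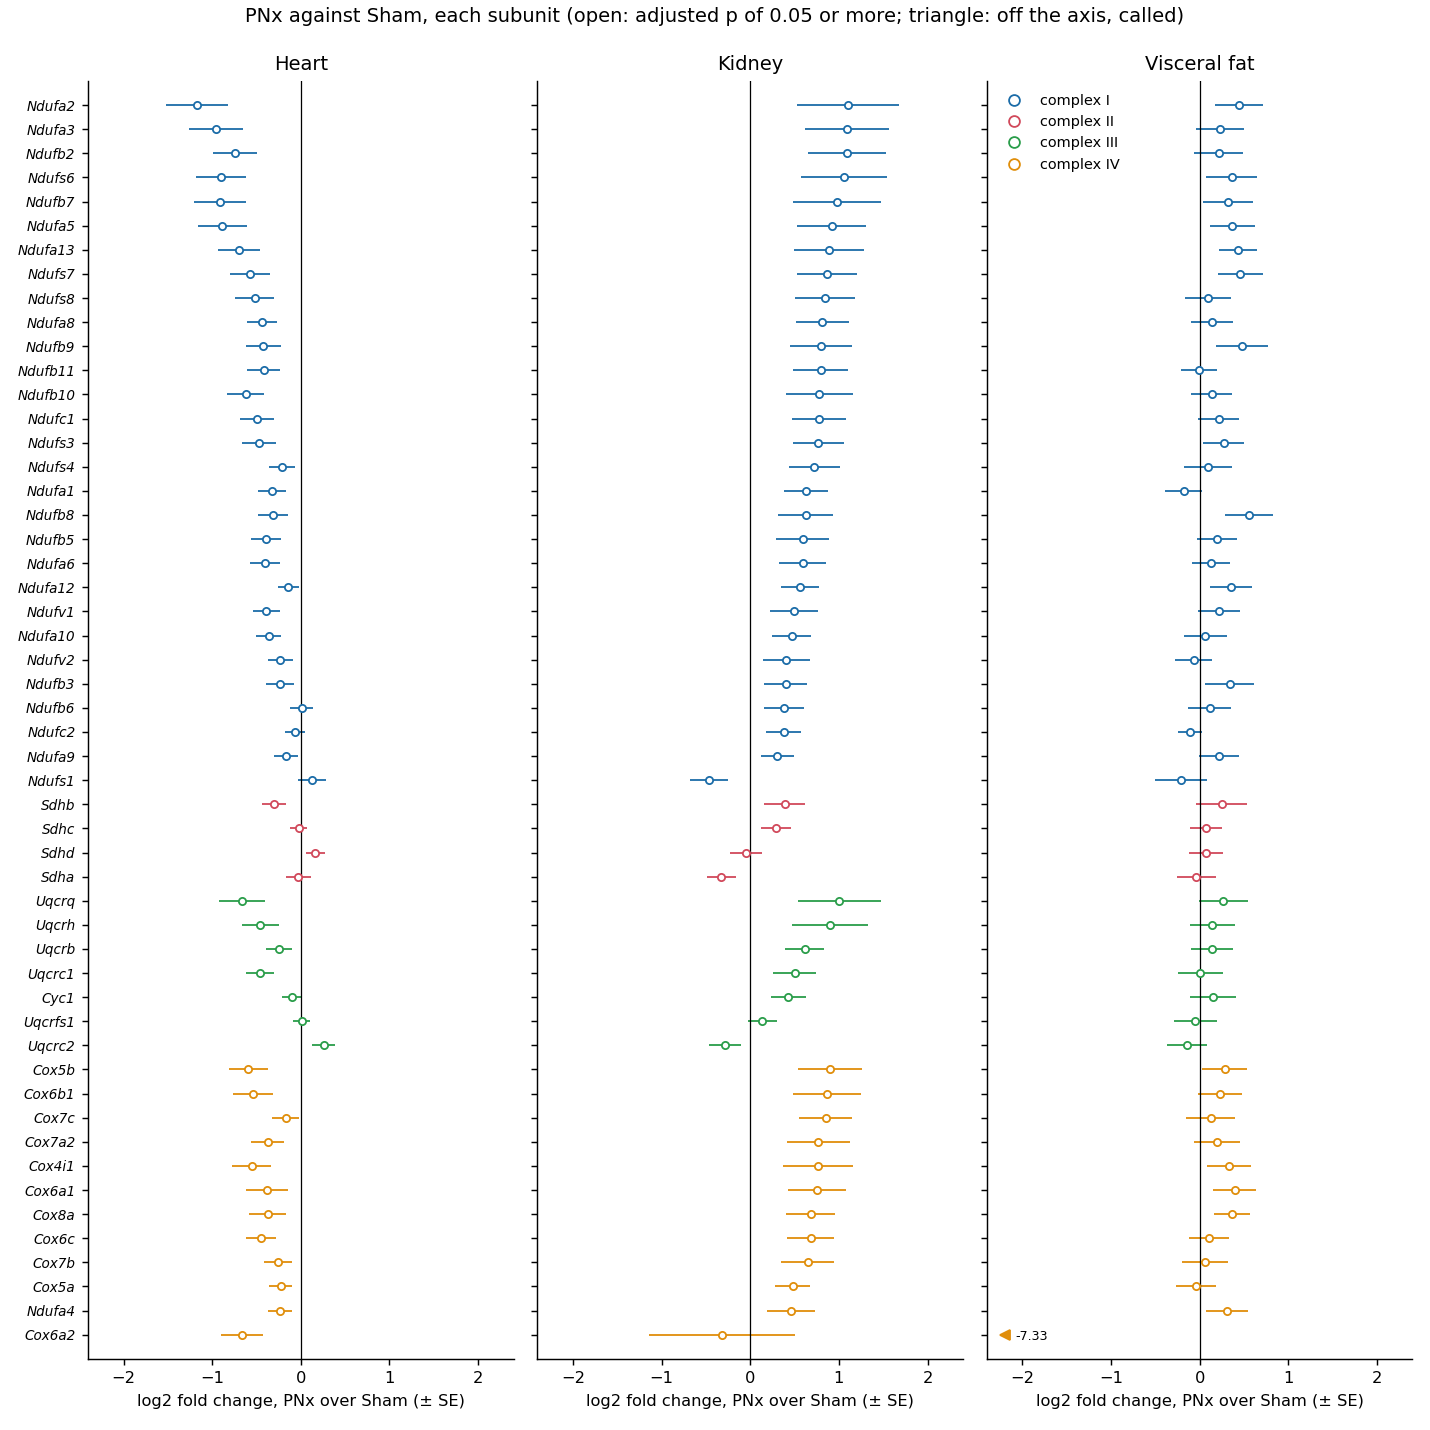
Log2 fold change of each member for PNx over Sham in heart, kidney and visceral fat, with bars of 1 SE and the members listed by complex and by their kidney value. Open points are not called. In kidney 47 of the 52 lie above 0, in heart 5 do, and the 1 called member, Cox6a2 in fat at -7.33, is a triangle at the edge of the axis.

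Related gene lists were then counted in kidney, beside the 1509 of 16307 genes called higher and the 1233 called lower for PNx against Sham. The 16 other nuclear-encoded subunits of complexes I to IV had 3 called higher and 0 lower for PNx against Sham (median log2 fold change 1.0). These were Ndufa4l2 (1.62 ± 0.41, edgeR adjusted p = 0.0200), Cox6b2 (1.75 ± 0.54, edgeR adjusted p = 0.0368) and Cox4i2 (1.53 ± 0.52, edgeR adjusted p = 0.0480), each a variant form of a widely expressed subunit. Among 16 ATP synthase genes 1 was called higher, Atp5g1, which encodes a ring subunit (1.10 ± 0.36, edgeR adjusted p = 0.0431). The 13 subunits encoded by mitochondrial DNA had no call, 1 positive value and a median of -0.54. Of 39 tested assembly factors, Cox17, which carries copper to complex IV, was called higher (0.95 ± 0.32), while Cox15, of heme a synthesis, and Ndufaf4 were called lower (-0.64 ± 0.20 and -0.51 ± 0.17). One of 13 citric acid cycle genes was called, Dld, which was lower (-0.66 ± 0.20). Of 14 regulators of mitochondrial biogenesis 3 were called lower, the mitochondrial transcription factor Tfb2m (-0.70 ± 0.18), the lipid-sensing receptor Ppara (-1.47 ± 0.41) and Gabpa (-0.88 ± 0.28), the DNA-binding subunit of GABP. For comparison, the 58 cytosolic ribosomal protein genes, which are also short, had 5 called higher and a median of 1.02. The edgeR adjusted p of Cox17, Cox15, Ndufaf4, Dld, Tfb2m, Ppara and Gabpa lay between 0.0199 and 0.0463, and the 3 PNx libraries with a high length index enter all of these values. Without them and control cells 4 and 5, no gene of these lists was called, in the fit whose count over all genes is given above. The medians were then 0.04 for the other subunits, -0.03 for ATP synthase, -0.14 for the mitochondrially encoded subunits and -0.07 for the ribosomal proteins. They were -0.05 for the assembly factors, -0.13 for the citric acid cycle (1 of 13 positive) and -0.09 for the regulators (4 of 14 positive). With the length index as a covariate none of the 11 named genes was called, and Cox8b, a muscle form, was the only call among the other subunits. Of the 11, Tfb2m (-0.46 ± 0.14, edgeR adjusted p = 0.0652) and Ppara (-0.97 ± 0.30, edgeR adjusted p = 0.0724) then came nearest to a call. The mitochondrially encoded subunits had a median of -0.36 in that fit, with 2 of 13 positive.

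In heart, PNx against Sham called none of the 52 members, with 5 positive and a median log2 fold change of -0.39. There were 29 members at an unadjusted p under 0.05, against 15.8% of all genes, and DESeq2 called 1 (Ndufa2, lower), with 1.72% of all genes called. Of 15091 genes 0.126% were called, 0.0133% higher and 0.113% lower. The medians were -0.42 for complex I, -0.03 for complex II, -0.24 for complex III and -0.38 for complex IV.

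Ndufa2, a small accessory subunit of complex I, had the lowest p, with 257.9, 206.0, 177.9, 264.9 and 190.6 CPM in PNx hearts, against 238.0, 730.2, 1123, 213.5 and 173.3 CPM in Sham hearts (log2 fold change -1.17 ± 0.35, edgeR adjusted p = 0.161). Ndufa5, another accessory subunit of complex I, had 321.2, 306.7, 291.5, 414.8 and 308.2 CPM in PNx hearts, against 371.9, 853.8, 1204, 324.5 and 288.3 CPM in Sham hearts (-0.89 ± 0.28, edgeR adjusted p = 0.168). Ndufs6, a zinc-binding subunit of complex I, had 289.7, 264.6, 239.3, 325.7 and 262.4 CPM in PNx hearts, against 305.6, 809.3, 943.6, 274.7 and 249.6 CPM in Sham hearts (-0.90 ± 0.28, edgeR adjusted p = 0.168). For all 3 genes Sham 2 and 3 were the high samples, and the other 3 Sham hearts overlapped the PNx hearts. Cox6a2 followed the same pattern, with 1047, 1021, 856.8, 1158 and 932.8 CPM in PNx hearts, against 1078, 2189, 2765, 1051 and 857.5 CPM in Sham hearts (-0.66 ± 0.23, edgeR adjusted p = 0.19).

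Uqcrc2 and Ndufs1, with longer transcripts, were lower in those 2 libraries than in the other 3 Sham hearts. Uqcrc2 had 692.3, 802.7, 738.8, 809.3 and 795.9 CPM in PNx hearts, against 839.6, 478.2, 532.3, 661.5 and 695.8 CPM in Sham hearts, and the groups overlapped. Ndufs1 had 356.1, 583.6, 625.8, 593.7 and 569.4 CPM in PNx hearts, against 634.9, 407.8, 400.5, 485.7 and 565.5 CPM in Sham hearts. Summed over the members, PNx hearts held 24766.4 ± 1901 CPM and Sham hearts 32413.4 ± 11100.9 CPM (SD, n = 5 each), with 43486.8 and 45320.6 CPM in Sham 2 and 3. With Sham 2 and 3 left out, the median log2 fold change was 0.01, 28 of 52 were positive and 0 were called, and Ndufa2 had 0.05 ± 0.18. With the length index as a covariate the median was -0.20 and 0 were called. Proximal tubule markers summed to 23.8 to 39.5 CPM in PNx hearts, against 53.0 to 4251 CPM in Sham hearts, and 7 of 8 tested were called lower in PNx. Atrial markers summed to 34 to 4092 CPM in PNx hearts, against 18.7 to 170.2 CPM in Sham hearts, with 4 of 4 positive and none called. Leukocyte markers summed to 144.4 to 1215 CPM in PNx hearts, against 138.6 to 193.0 CPM in Sham hearts, with 8 of 8 positive and none called. The part of these markers in the values of the members was not tested.

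**Figure D4:**
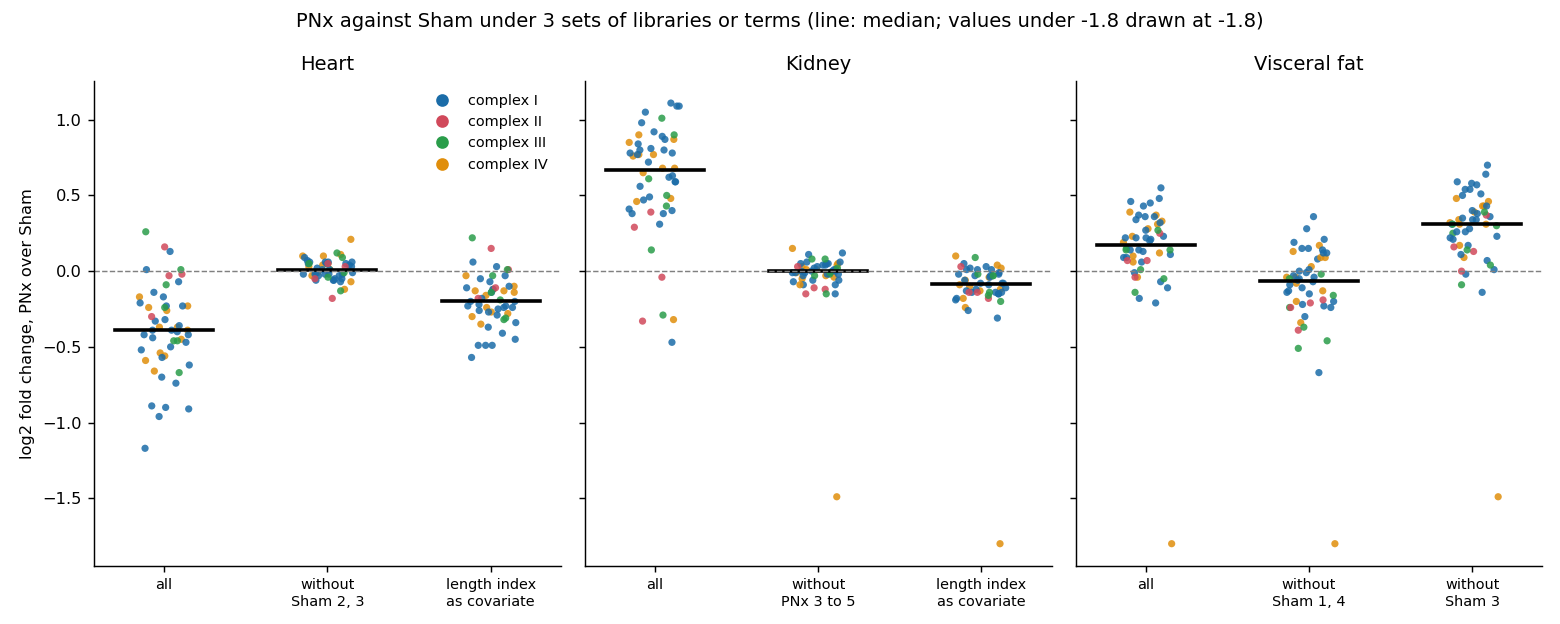
Log2 fold change of each member for PNx over Sham with all libraries and under 2 other settings per tissue, named on the axis, with 1 point per member coloured by complex and a line at the median. The kidney and heart medians of 0.66 and -0.39 come to -0.00 and 0.01 when the libraries with a high length index are left out.

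The effect of PNx differed between kidney and heart for 25 of the 52 members, all more positive in kidney, in a test of the difference itself (median difference of log2 fold changes 0.90, 48 positive). Of 19180 genes 12% were called, 8.28% more positive in kidney and the rest more negative. Complex I held 17 of the 25, complex III 3, complex IV 5 and complex II 0. The lowest p values were those of Ndufa5 (1.69 ± 0.43, edgeR adjusted p = 0.0163), Ndufa3 (1.93 ± 0.50, edgeR adjusted p = 0.0164) and Ndufb2 (1.72 ± 0.46, edgeR adjusted p = 0.0182), 3 accessory subunits of complex I. Ndufa5 had 137.8, 108.4, 315.0, 233.1 and 336.8 CPM in PNx kidneys, against 118.9, 113.8, 131.8, 113.9 and 119.5 CPM in Sham kidneys, while its heart values are given above. Every one of the 25 calls was lost when Kidney PNx 3 to 5 and control cells 4 and 5 were left out (median 0.35), and also when Heart Sham 2 and 3 were left out (median 0.60). Leaving out Heart Sham 2 or Heart Sham 3 alone left 0 calls, leaving out Kidney PNx 3 left 1 and leaving out Kidney PNx 5 left 3. The share of all genes called in these fits is not given here. Without the same kidney or heart libraries, calls over all genes also fell for PNx against Sham in kidney and in heart. The losses therefore cannot be read as particular to the members. The Ndufa3 gene overlaps Tfpt, Ndufa2 overlaps Tmco6 and Ndufb2 overlaps Braf. Other members also overlap genes, among them Cox6a2 with Itgad, Ndufs1 with Eef1b2, Cox4i1 with Emc8, Ndufs6 with Mrpl36 and Ndufs3 with Kbtbd4. Since the sources used here do not state whether counting used strand, the counts of all such members are uncertain.

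In visceral fat, PNx against Sham called 1 member, Cox6a2, which was lower, while 13% of 17552 genes were called, 4.83% higher and 8.18% lower. The other 51 had log2 fold changes of at most 0.55 in size, 42 of the 52 were positive and the median was 0.17. Cox6a2 had 0, 0.104, 0.151, 0 and 0 CPM in PNx fat, against 0, 0, 53.1, 0.437 and 0.234 CPM in Sham fat. In raw counts this was 2 in all PNx libraries, against 488 in all Sham libraries, and Sham 3 alone held 483. Relative to library totals, the summed counts were 245-fold lower in PNx, with an exact interval of 67.6 to 2032 at 95% that covers counting error only. The fitted log2 fold change was -7.33 ± 1.96 (edgeR adjusted p = 0.0169), a value that depends on how near-zero groups are handled. Without Sham 3 it was -1.52 (edgeR adjusted p = 0.659). In fat, Cox6a2 passed the filter on low counts only through the scrambled cells libraries, and it did not pass with only PNx and Sham fitted. With no expression filter its log2 fold change was -7.30 (edgeR adjusted p = 0.0191).

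The 8 skeletal muscle markers moved with Cox6a2. They summed to 10346.7 CPM in VFAT Sham 3 and to 7.83 to 86.3 CPM in the other Sham, PNx, control and NaKtide fat libraries, and all 8 were called lower in PNx than in Sham. Among the members, Ndufb8 came next in p, with a log2 fold change of 0.55 ± 0.27 (edgeR adjusted p = 0.192). With the epididymis-rich libraries Sham 1 and 4 left out, Ndufs1 was called lower beside Cox6a2 (-0.67, edgeR adjusted p = 0.0494) and the median of the members was -0.06. Ndufs1 had 157.1, 131.0, 191.8, 185.0 and 187.0 CPM in PNx fat, against 67.9, 316.6, 226.2, 100.1 and 271.4 CPM in Sham fat, and the 2 low Sham values are those of Sham 1 and 4. Epididymal markers summed to 13637.6 and 12066.2 CPM in these 2, against 128.0 to 5604 CPM in the other Sham fat and at most 43.5 CPM in all other arms. Among the related genes, Cox7a1, a muscle and brown fat form of a complex IV subunit, was called lower in PNx fat (-2.45 ± 0.75, edgeR adjusted p = 0.0357). So were Atp5g1 (-1.31 ± 0.39, edgeR adjusted p = 0.0307), Cox15 (-1.60 ± 0.32, edgeR adjusted p = 0.00223) and the nuclear receptor Esrrb (-3.29 ± 0.64, edgeR adjusted p = 0.00198). Each was the only call in its list, of 16 other subunits, 16 ATP synthase genes, 39 tested assembly factors and 14 regulators. Over all genes, 1435 of 17552 were called lower. Cox7a1 had 1.79, 10.5, 35.8, 12.8 and 26.5 CPM in Sham fat, against 2.30, 7.06, 3.03, 0.912 and 2.48 CPM in PNx fat. These genes were not followed in the fits without Sham 3 or without Sham 1 and 4.

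The transplanted cells were compared next. Scrambled cells stood apart in fat. For NaKtide cells against scrambled cells, 1 member was called, Cox6a2, which was lower, while 2.36% of genes were called, and for scrambled cells against control cells 1 was called, again Cox6a2, which was higher, while 2.41% were called. This gene passed the filter on low counts in fat only through the scrambled libraries. They held 217, 2242, 46 and 1146 counts, against at most 7 elsewhere outside Sham 3. Both calls are therefore of a gene admitted by the group in which it was high. With no expression filter the log2 fold changes were -8.27 (edgeR adjusted p = 0.00668) and 10.31 (edgeR adjusted p = 0.00549). Cox6a2 had 0.496, 0.281, 0.625, 0.152 and 0.111 CPM with NaKtide cells, against 26.0, 290.8, 2.28 and 167.3 CPM with scrambled cells. With control cells it had 0, 0.0993, 0.130, 0 and 0.0977 CPM. No scrambled value overlapped those of the other 2 arms. The fitted log2 fold change was -8.38 ± 1.64 for NaKtide against scrambled cells (edgeR adjusted p = 0.00793) and 10.40 ± 1.90 for scrambled against control cells (edgeR adjusted p = 0.00902). Relative to library totals, the summed counts were 237-fold lower for NaKtide cells (exact 95% interval 151 to 394, 19 counts against 3651) and 1085-fold higher for scrambled cells against control cells (423 to 3984, 3651 counts against 4), counting error only. With scrambled cells 2 and 4 and Sham 3 left out, the log2 fold changes were -5.30 (edgeR adjusted p = 0.00205) and 7.33 (edgeR adjusted p = 0.000287). The skeletal muscle markers summed to 4601, 44483.5, 580.8 and 28691.9 CPM with scrambled cells, and ranked the 4 samples as Cox6a2 did. Markers of the acinar pancreas were high in scrambled cells 2, 3 and 4. They summed to 5.04, 5434, 29882.4 and 631.3 CPM in the 4 samples of that arm, and did not rank them as Cox6a2 did. What these tissues contribute to the other members was not tested.

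**Figure D5:**
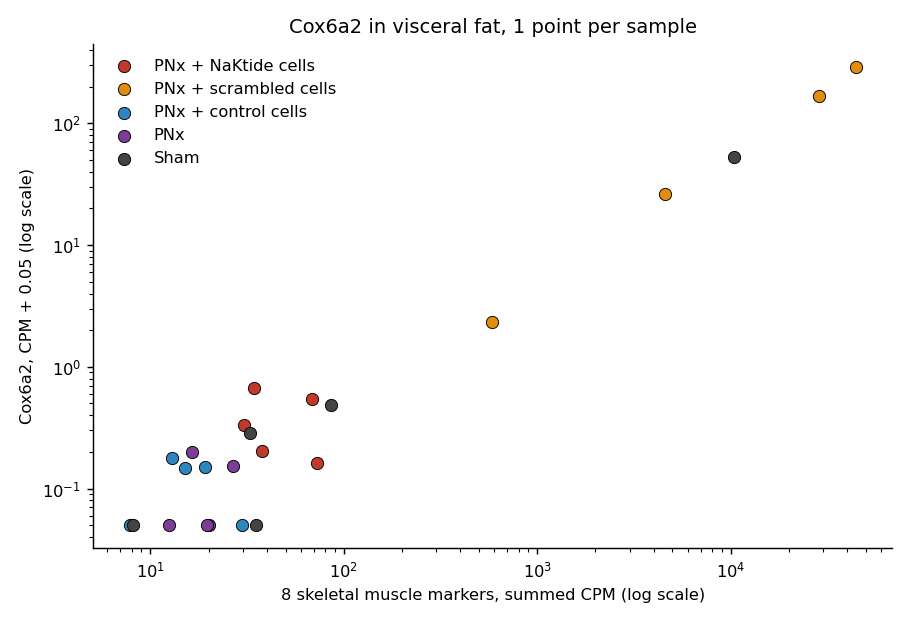
CPM of Cox6a2 plus a small constant in each visceral fat sample against the summed CPM of 8 skeletal muscle markers, both on log axes, with 1 colour per arm. The 4 scrambled libraries and Sham 3 lie at the upper right, and the other samples have at most 0.625 CPM of Cox6a2.

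The other 51 members were also lower with NaKtide than with scrambled cells in fat, without a call. All 52 log2 fold changes were negative (median -0.51), 22 had an unadjusted p under 0.05, against 19.4% of all genes, and the median over all genes was 0.01. Cox5a had 147.4, 72.9, 101.1, 77.9 and 119.3 CPM with NaKtide cells, against 166.1, 214.8, 146.7 and 195.2 CPM with scrambled cells (log2 fold change -0.80 ± 0.24, edgeR adjusted p = 0.08). The lowest scrambled sample lay below the highest NaKtide sample. Uqcrfs1 had 242.3, 134.8, 172.2, 176.0 and 209.7 CPM with NaKtide cells, against 325.8, 371.8, 282.5 and 326.2 CPM with scrambled cells (-0.80 ± 0.26, edgeR adjusted p = 0.092), and the groups did not overlap. Sdha had 378.5, 411.2, 387.1, 475.6 and 478.2 CPM with NaKtide cells, against 665.0, 695.8, 522.5 and 662.2 CPM with scrambled cells, also without overlap. In 9 of the 52 members the NaKtide group lay wholly below the scrambled group, against 5.61% of all genes that did not overlap in either direction. These were Sdha and Sdhd of complex II, Cyc1, Uqcrc1, Uqcrc2 and Uqcrfs1 of complex III, Ndufs1 and Ndufv1 of complex I, and Cox6a2. DESeq2 called 4 members lower (Cox6a2, Cox5a, Uqcrfs1 and Uqcrc2), which is 7.69% of them, against 9.05% of all genes. The length index as a covariate gave 4 (Cox6a2, Cox5a, Ndufv2 and Ndufb11), against 4.51% of all genes. For scrambled against control cells all 52 were positive (median 0.41), 6 had an unadjusted p under 0.05, against 15.7% of all genes, and 12 did not overlap, against 4.73%. Leaving out 1 library at a time, the median ranged from -0.72 to -0.35 with 0 positive for NaKtide against scrambled cells. For scrambled against control cells it ranged from 0.31 to 0.48, with 51 to 52 positive. Values without both muscle-rich libraries, scrambled cells 2 and 4, are not given for these members. These 2 comparisons share the scrambled libraries. NaKtide cells against PNx, which does not use them, had a median of 0.00 with 27 positive and 0 called or at an unadjusted p under 0.05 in edgeR, against 3.71% of all genes. Single libraries set that median, which was -0.23 with 1 positive without NaKtide cells 1, and 0.14 and 0.18 with 41 positive without NaKtide cells 2 or PNx 2. For control cells against PNx the median was 0.08 with 46 positive and 0 at either threshold, against 2.52% of all genes at an unadjusted p under 0.05.

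In heart, NaKtide against scrambled cells had 52 of 52 members positive (median 0.28) and none called by edgeR, with 7 at an unadjusted p under 0.05, against 5.98% of all genes. NaKtide cells 4 had the highest mean of the members in its arm, and without it the median was 0.18 with 52 positive. With the length index as a covariate the median was 0.07. Atrial markers summed to 7031 CPM in NaKtide cells 5 and 5005 CPM in scrambled cells 4, against at most 212.4 CPM in the other 8 libraries, and their part was not tested. Ndufs4, an accessory subunit of complex I needed for its activity, had the lowest p, with 168.6, 183.5, 177.4, 266.9 and 169.5 CPM with NaKtide cells, against 165.5, 176.5, 133.7, 124.8 and 155.8 CPM with scrambled cells (log2 fold change 0.35 ± 0.14, edgeR adjusted p = 0.72). In 6 members all NaKtide values lay above all scrambled values, against 1.77% of all genes. Genes under 1000 bases outside the list had a median of 0.25, against 0.31 for the 30 members of that length, and the ribosomal protein genes were positive in 58 of 58 (median 0.27). The length index was 0.16 ± 0.40 with NaKtide cells and -0.17 ± 0.13 with scrambled cells (SD, n = 5 each). Scrambled against control cells had 0 of 52 positive (median -0.24), 0 called and 2 at an unadjusted p under 0.05, against 7.28% of all genes, and both comparisons share the scrambled libraries. Against PNx, NaKtide cells had a median of -0.18 with 0 called and 1 at an unadjusted p under 0.05, against 8.28% of all genes. Control cells against PNx had -0.24 with 0 called and 3 at that threshold, against 8.36%. Sdhd, a membrane anchor of complex II, had the lowest p in both, with 344.5, 363.7, 333.4, 423.9 and 309.4 CPM with NaKtide cells, 310.8, 364.1, 354.6, 378.3 and 385.1 CPM with control cells and 394.1, 469.1, 410.9, 396.4 and 449.8 CPM in PNx hearts.

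In kidney, no member was called in any of the 4 comparisons of the cell arms, by edgeR or by DESeq2. NaKtide cells against PNx had 4 of 52 positive (median -0.55) and 13 at an unadjusted p under 0.05, against 19.1% of all genes. Cox8a had the lowest p, with 642.5, 392.3, 403.3, 524.0 and 399.6 CPM with NaKtide cells, against 531.2, 393.8, 998.2, 815.4 and 1025 CPM in PNx kidneys (log2 fold change -0.67 ± 0.28, edgeR adjusted p = 0.26). The high values were again those of PNx 3 to 5, and without them and control cells 4 and 5 the median was 0.10 with 44 positive. The mitochondrially encoded subunits had a median of 0.22 and 9 of 13 positive in this comparison, and the ribosomal protein genes -0.73 and 0 of 58. NaKtide against scrambled cells had 3 positive (median -0.31) and 0 at an unadjusted p under 0.05 in edgeR, against 5.02% of all genes. Control cells against PNx had 44 positive (median 0.12), also 0 at that threshold, against 6.43%. Without the same 5 libraries it had 52 positive and a median of 0.15. Scrambled against control cells had 7 positive (median -0.39) and 12 at an unadjusted p under 0.05, against 10.7%, and 0.0123% of genes were called, all of them lower, with Ndufa10, an accessory subunit of complex I, lowest in p (-0.62 ± 0.22, edgeR adjusted p = 0.35). The members summed to 32548.1 and 45238.5 CPM in control cells 4 and 5, the libraries with a high length index, against 14129.0 to 20211.4 CPM with scrambled cells. Without these 2 and PNx 3 to 5 the median turned to 0.25 with 45 positive and 0 called, while 228 genes were called.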

How the data were processed

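Total RNA extracted with a Qiagen RNeasy Plus Universal kit was read as pairs of 50 bases, per the labels' protocols. The submitters' processing notes list the build GRCm38 and, without saying what each did, HISAT2 2.1.0, Trimmomatic 0.38 and DESeq2 in versions 1.20.0 and 1.20.1. The sources used here name no counter and no strand setting. The authors deposited raw counts with no normalization. They also deposited a signal table, in which the counts of each library are divided by 1 size factor, and it served only to check the FPKM. The authors' FPKM are those values divided by a gene length that matches the union of exons of GENCODE M21 within 1% for 96.8% of 34929 genes.

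A second library of Kidney Sham 3 and of VFAT scrambled cells 3 was added to its partner, so that each pair counts once. Counts were fitted per tissue over 5 arms, and over 15 groups jointly for comparisons between tissues, in edgeR 4.0.16 under R 4.3.3 (quasi-likelihood F test, TMM, filterByExpr, two-sided), after a run on simulated data. Benjamini-Hochberg adjustment covered every gene tested, and a call is an adjusted p under 0.05. Libraries of different tissues were treated as independent. Log2 CPM used a prior count of 2.

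Named are up to 6 called members of lowest p per comparison (3 in each direction), or else the 3 of lowest p as not called, a fixed set of 14, and up to 3 called genes of each related list. Members named for groups that did not overlap, or for values against the trend, were chosen after their values were seen. The members and lists were chosen with earlier results of these data known. Alternatives were DESeq2 1.42.0, its size factors in edgeR, no expression filter, second libraries left out, a replicate block, only the 2 arms compared, the length index as a covariate and libraries left out. The covariate in heart and VFAT and the removal of Heart Sham 2 and 3, of VFAT Sham 1 and 4, and of VFAT Sham 3 with scrambled cells 2 and 4 were chosen after seeing the data, as were levels per principal transcript and the related kidney lists under 2 settings.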

Additional observations from a re-analysis of the deposited data

Results flagged for a closer look

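In groups of 4 or 5 samples, each of 225 sets of values (the mean of the members or a member of the fixed set, per group) was checked for a highest or lowest sample standing apart, with Dixon's ratio of its gap to the range. The ratio exceeded its 95% critical value in 19 sets, where chance gives about 1 in 20, or 11. Of the 19, 8 were high values of Heart NaKtide cells 4, whose mean log2 CPM of the members was 8.88, against 8.34 to 8.38 in the other 4 (ratio 0.928). The other 7 ratios were 0.864 for Ndufb8, 0.739 for Sdhb, 0.789 for Cyc1, 0.882 for Cox4i1, 0.741 for Cox5a, 0.813 for Cox6a2 and 0.856 for Cox7c. The length index of this library was 0.746, the highest of its arm.

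Low values stood apart for Sdha in Heart control cells 1 (0.786), for Ndufs1 (0.832) and Sdha (0.713) in Heart PNx 1, for Sdha in Kidney PNx 3 (0.813) and for Cox6a2 in Kidney scrambled cells 5 (0.738). Heart PNx 1 had the highest length index of the PNx hearts, 0.98, and Kidney PNx 3 that of the PNx kidneys, 1.48. Atrial markers summed to 5073 CPM in Heart control cells 1, against 18.5 to 384.9 CPM in the other 4, and leukocyte markers to 1215 CPM in Heart PNx 1, against 144.4 to 493.1 CPM in the other 4. Kidney Sham 3 was high in the mean of the members (0.764) and in Cox6a2 (0.798). Its first library held 171 counts of Cox6a2 and 74.4 CPM (unscaled) of the muscle actin Acta1, against 7 counts and 0.525 CPM in its second library. In fat, high values stood apart for Cox6a1 in control cells 4 (0.774), Cox4i1 in PNx 2 (0.732), Cyc1 in scrambled cells 2 (0.900) and Cox6a2 in Sham 3 (0.800).

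The PNx effect differed between kidney and heart for 25 members by the interaction test, where 2309 of 19180 genes were called. The differences of log2 fold changes were 1.69 for Ndufa5, 1.93 for Ndufa3 and 1.72 for Ndufb2, and each of the 25 was more positive in kidney. All 25 calls were lost without the kidney or the heart libraries of high length index, as given above. Between VFAT and heart the PNx effect differed for 1 member, Cox6a2 (-6.66 ± 1.72, edgeR adjusted p = 0.00771), where 9.41% of genes were called. Between VFAT and kidney it differed for 1, again Cox6a2 (-6.88 ± 1.78, edgeR adjusted p = 0.00611), where 11.7% were called. Both Cox6a2 values use VFAT Sham 3, which held 483 of the 488 Cox6a2 counts of Sham fat.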

How the results depend on the processing

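Of 401 alternative counts of called members, 362 stayed within 1.5 times the reported count and 39 did not. With DESeq2 the counts were 1 (Heart PNx vs Sham), 4 (Kidney PNx vs Sham), 4 (VFAT NaKtide vs scrambled cells) and 2 (PNx effect, VFAT minus heart). DESeq2 also called 0 members in the 4 comparisons of cell arms in heart and in both comparisons of cell arms with PNx in VFAT. Without the second libraries Kidney PNx vs Sham gave 2. With the length index as a covariate, Kidney scrambled vs control cells gave 1 (Ndufs8, lower) and VFAT NaKtide vs scrambled cells 4. VFAT PNx vs Sham gave 0 with only the 2 arms compared, where Cox6a2 did not pass the filter, 0 without VFAT Sham 3 and scrambled cells 2 and 4, and 2 without VFAT Sham 1 and 4, which also took Sham Kidney vs VFAT to 18. The kidney minus heart count was 15 with no expression filter and 0 without the kidney or the heart libraries of high length index, and the VFAT minus kidney count was 0 without those kidney libraries.

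Leaving out 1 library at a time, counts ranged from 0 to 11 for Heart PNx vs Sham (11, or 21.2% of members, without Sham 5, against 2.46% of all genes), 0 to 27 for Kidney PNx vs Sham (18, or 34.6%, without PNx 1, against 34.9% of all genes, and 27, or 51.9%, without PNx 2, against 39.6%), 0 to 1 for VFAT PNx vs Sham (0 without Sham 3) and 1 to 4 for VFAT NaKtide vs scrambled cells (4, or 7.69%, without NaKtide cells 1, against 2.71%). They ranged from 0 to 37 for kidney minus heart (37, or 71.2%, without Kidney PNx 2, against 23.5%), with 16 without Heart PNx 2 or 3 and 15 without Kidney PNx 4 beside the losses given in the report. For VFAT minus heart they ranged from 1 to 5, with 3 without Heart Sham 1 or 4, 5 without Heart Sham 5 and 2 without VFAT PNx 1, VFAT PNx 4 or VFAT Sham 2. For VFAT minus kidney they ranged from 0 to 3, with 0 without VFAT Sham 3, 2 without Kidney PNx 1 or VFAT Sham 2 and 3 without Kidney PNx 2 or VFAT PNx 2. In this section, a count without the share of all genes called in the same fit cannot be read as particular to the members. For control cells against PNx in kidney, 11 (without control cells 5) to 49 (without PNx 5) members were positive, and for scrambled against control cells in kidney the median ranged from -0.55 to -0.15 (without control cells 5). Of 3348 alternatives for named members, 3068 were labelled the same. Such a member kept its side of the threshold and, if not called, stayed within 1 SE of the reported value. The sign of an uncalled value could still change. With the sign kept, calls were gained in 56 alternatives and lost in 87. In 136 an uncalled value moved by more than 1 SE, with or without a change of sign. The 1 reversal was the Cox6a2 log2 fold change, Sham Kidney vs VFAT, which was -1.51 with all libraries and ranged from -3.57 without Kidney Sham 3 to 4.31 without VFAT Sham 3. Over all genes, Kidney PNx vs Sham gave 2742 calls, and 4466 with DESeq2, 1007 with no filter, 552 with the covariate, 146 with only the 2 arms and 97 without the doubted libraries. Heart PNx vs Sham gave 19, and 259 with DESeq2, 76 with no filter and 0 with the covariate or without Sham 2 and 3. VFAT PNx vs Sham gave 2283, and 384 with only the 2 arms and 551 without Sham 1 and 4. The cause of these changes was not tested.

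Samples that share a replicate number are not tied by the labels, and in no comparison did all pairs correlate above 0.1 (in Kidney PNx vs Sham, -0.23 to 0.17). With a replicate block, members called numbered 0 for Kidney PNx vs Sham, 0 for VFAT PNx vs Sham (Cox6a2, edgeR adjusted p = 0.0925) and 21 for kidney minus heart. Cox6a2 in fat outside scrambled cells and Sham 3 rests on at most 7 counts per library, which limits its ratios.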
